A study of Mus musculus with 155 samples.

Results

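Axon guidance and cell adhesion genes were followed across 5 populations of single cells sorted from the adult mouse brain. The genes were found by symbol, as genes of the deposited table whose names begin with that of a semaphorin of classes 3 to 7, a plexin, a neuropilin, an Eph receptor or ephrin, a Robo, Slit or Unc5 gene, a cadherin, a protocadherin, an integrin, a contactin, a neurexin, a neuroligin, Ncam or a leucine-rich repeat gene (Lrr). This gave 35 of the 3422 genes in the table. The name check was imperfect. Unc50 encodes a membrane protein of the secretory pathway and not a netrin receptor, Itgb3bp encodes a centromere protein and not an integrin, and Lrrc8a and Lrrc8d encode subunits of the volume-regulated anion channel. These members are reported with the others and are named as what they are.

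OligNBL cells (40 cells) carried both a Gad67-GFP and an Olig2-Tomato reporter, came from a cross of CB6-Tg(Gad1-EGFP)G42Zjh/J with Olig2-tdTomato TH39Gsat/Mmcd mice, and were sorted 6 days after a demyelinating injection of LPC, a lysolipid that strips myelin. NBL cells (27 cells, GFP, CB6-Tg(Gad1-EGFP)G42Zjh/J) and OL cells (22 cells, Tomato, Olig2-tdTomato TH39Gsat/Mmcd) came from mice with the same lesion. O cells (29 cells, Tomato) and NB cells (37 cells, GFP) came from healthy mice of those strains. All mice were 8 to 10 weeks old, the labels name the subventricular zone and corpus callosum as the tissue, and a reporter marks cells by the promoter that drives it, not by lineage. Per the labels 5 mice were used per condition, none of them tied to a cell, so each population was 1 sample, and no test between populations could be made. Strain differs with the gate in OligNBL against NBL, in OligNBL against OL and in O against NB. All 40 OligNBL titles carry the control mark although the labels place these cells in demyelinated mice; the labels' lesion state is used.

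Axon guidance rests on cues read by receptors at the cell surface: semaphorins by plexins and neuropilins, ephrins by Eph receptors, Slits by Robo receptors, and netrins by receptors that include the Unc5 family. Cadherins, integrins and members of the immunoglobulin superfamily hold cells to each other or to the matrix. In the adult subventricular zone, neuroblasts migrate in chains to the olfactory bulb, and Slit and Robo proteins, N-cadherin, integrins and polysialylated NCAM are among the molecules known to act in that migration.

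The values were labelled estimated counts but had been normalized between cells: column totals lay between 5155900 and 5161090, so depth could not be read from them. For each population, log2(value + 1) was averaged across its cells to give a level, printed with the SD between cells. A level is compared only between populations for the same gene, since the values are not per length. A gene is called present in a cell where it ranks within the top 500 of that cell; presence was counted over 40 OligNBL, 27 NBL, 22 OL, 29 O and 35 NB cells; 2 NB cells with fewer than 500 genes above their lowest value were left out of presence. A gene seen in 0 cells allows a share of up to 7.5% in OligNBL, 11.1% in NBL, 13.6% in OL, 10.3% in O and 8.57% in NB (3 cells of the total, counting error only). The median number of genes detected was 1397 in OligNBL, 1161 in NBL, 950.5 in OL, 1187 in O and 1117 in NB cells. Cells with neighboring numbers in the labels were alike, and average linkage on their correlations, stopped at 0.4, gave 20 sets. Such a set may be a batch or a kind of cell, which cannot be told apart here. For the 35 genes, the difference without a set is therefore given below where it fell under 2 or moved by more than 1.5 times. It was not computed for the other guidance and adhesion genes named near the end. These sets were made from all genes, the 35 included.

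Mature oligodendrocyte genes were high in OL and O cells and low in the other populations, the OligNBL cells with their Tomato reporter included. The summed level of 12 such genes had a median of 0.86 in OligNBL (range 0 to 10.6), 0.84 in NBL (0 to 13.6), 103.4 in OL (34.6 to 150.7), 75.9 in O (60.2 to 111.6) and 1.60 in NB cells (0 to 11.7). For 16 neuroblast genes the medians were 52.8 in OligNBL (30.3 to 86.8), 41.996 in NBL (22.5 to 60.5), 18.7 in OL (0 to 36.8), 11.9 in O (1.83 to 31.1) and 40.2 in NB cells (14.7 to 66.6). Summed over 6 oligodendrocyte progenitor genes, the medians were 11.4 in OligNBL (0 to 50.8), 2.72 in NBL (0 to 28.97), 4.35 in OL (0 to 17.1), 6.72 in O (0 to 21.8) and 0 in NB cells (0 to 16.98). Of 8 mature neuron markers only Snap25, of the synaptic vesicle fusion machinery, was in the table, and its median was 0.66 in OligNBL (0 to 11.1), 0 in NBL (0 to 2.80), 0 in OL (0 to 11.6), 5.89 in O (0 to 17.2) and 0 in NB cells (0 to 2.91). Of 6 endothelial markers 1 was in the table. Its medians were 7.68 in OligNBL, 8.23 in NBL, 7.73 in OL, 10.5 in O and 5.52 in NB cells. In the same order, 1 of 8 astrocyte and neural stem cell markers had 0.05, 0, 2.70, 1.85 and 0.77. Of 6 mural markers only Cspg4 was in the table, with 2.06, 0, 0, 0.52 and 0. Cspg4 is also on the oligodendrocyte progenitor list, so it is not a separate sign of mural cells. Summed over 2 of 7 newly formed oligodendrocyte markers, the medians were 2.93, 6.29, 6.27, 4.51 and 3.90. The part of these lists and of the number of genes detected in the differences below was not tested. Nrxn3 belongs to the neuroblast list as well as to the 35 genes. Of 8 microglia and 5 ependymal markers, 0 were among the 3422 genes, so RNA from those cells could not be looked for.

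**Figure D1:**
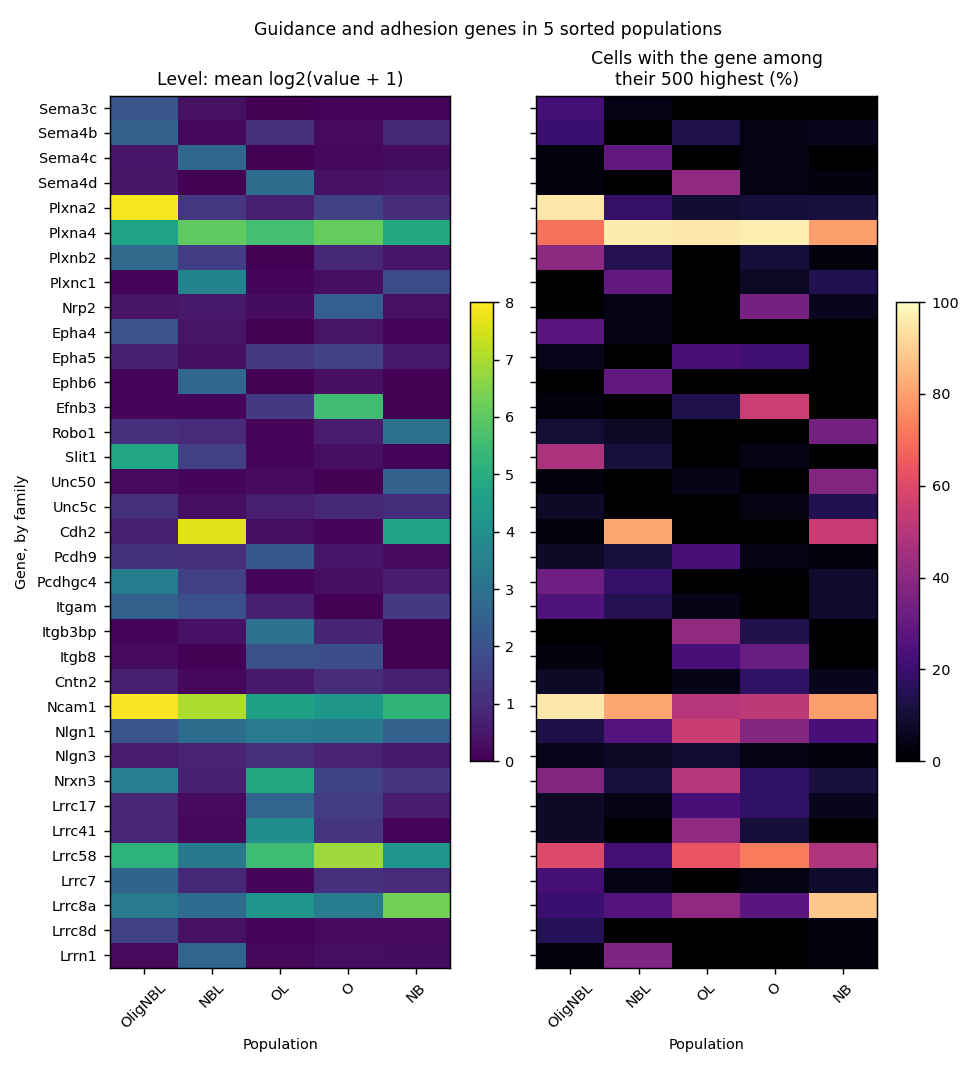
Level (left, averaged log2(value + 1)) and presence (right, percent of cells where the gene ranks in the top 500) of the 35 genes, in rows by family, in the 5 populations in columns. Plxna2 stands out in OligNBL, Cdh2 in NBL and NB, and Efnb3 in O, whereas Plxna4 is present in most cells of every population.

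Across the 35 genes, differences between populations were about as frequent as over all genes of the table. A difference of levels of at least 2, which is 4-fold on this scale, was counted. In OligNBL against NBL, 4 of 35 members were higher (12.2% of all genes were) and 5 were lower (10.3% of all genes, and 22.5% in either direction). In OligNBL against OL, 8 were higher and 3 lower, against 13.2% and 12.2% of all genes (25.4% in either direction). In NBL against NB, 4 were higher and 3 lower, against 9.76% and 8.39% of all genes (18.1%). In OL against O, 4 were higher and 2 lower, against 8.36% and 7.92% of all genes (16.3%). In O against NB, 3 were higher and 4 lower, against 12.3% and 13.5% of all genes (25.8%). The corresponding shares of members were 11.4% higher and 14.3% lower in OligNBL against NBL, 22.9% and 8.57% in OligNBL against OL, 11.4% and 8.57% in NBL against NB, 11.4% and 5.71% in OL against O, and 8.57% and 11.4% in O against NB. The share higher in OligNBL against OL was the one more than 1.5 times that of all genes, and no test stands behind it.

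The median difference of the members was 0.51 in OligNBL against NBL (0.03 over all genes), 0.08 in OligNBL against OL (0.13), 0.25 in NBL against NB (-0.0036), -0.16 in OL against O (-0.10) and 0.26 in O against NB (0.09). These medians kept their sign but not their size when single sets were left out. In OligNBL against NBL they ran from 0.22, without the NBL cells CRBT78 to CRBT84, to 0.57. In OligNBL against OL the lowest was 0.02, without the OL cells CRBT183 to CRBT190, and the highest 0.25. In NBL against NB the range was 0.07, without the NBL cells CRBT66 to CRBT77, to 0.31, in OL against O it was -0.19 to -0.09, and in O against NB 0.05, without the 11 NB cells named from CRBT22 to CRBT56, to 0.27. In all, 24 of the 35 members, or 68.6%, differed by at least 2 in at least 1 of the 5 comparisons, against 55.4% of all genes, and these comparisons share populations, so a gene high in a single population appears in several of them. Of the 40 such differences, 29 fell below 2 when a single set of alike cells was left out. Those of Plxna2 (in both OligNBL comparisons), Cdh2 (OligNBL against NBL), Pcdhgc4 and Plxnb2 (OligNBL against OL) and Lrrc8a (NBL against NB and O against NB) neither fell below 2 nor moved by more than 1.5 times.

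**Figure D2:**
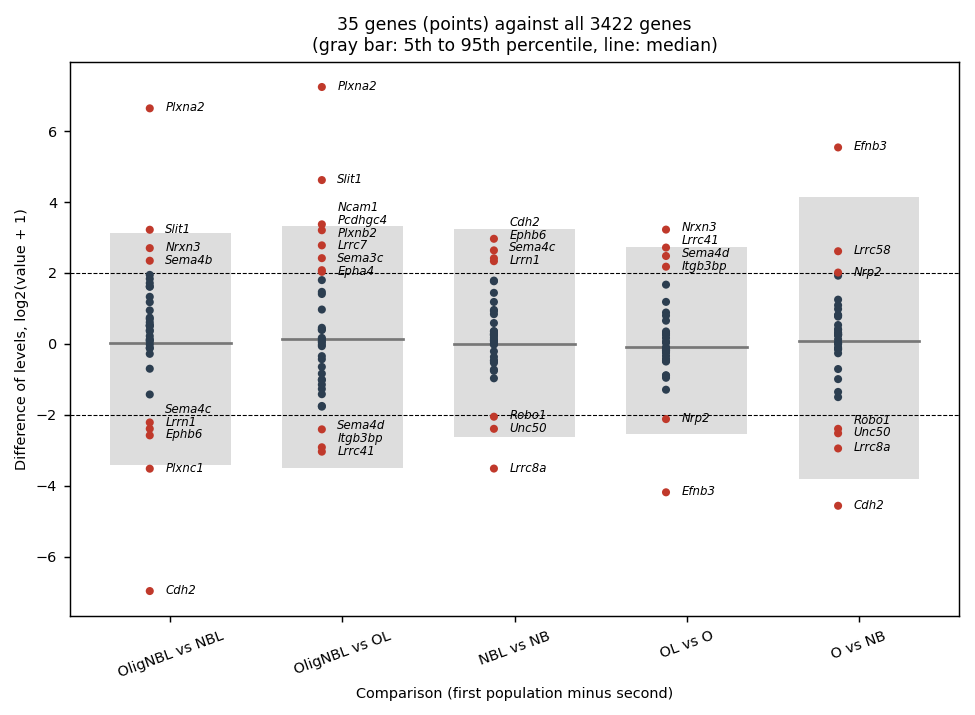
Difference of levels (first population minus second, log2(value + 1) scale) of the 35 genes (points; red and named where at least 2) in 5 comparisons, over the 5th to 95th percentile of all 3422 genes (gray bars, line at the median). Plxna2 at 6.64 and Cdh2 at -6.97 in OligNBL against NBL lie farthest from 0 in that comparison.

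Of the plexins, the receptors of semaphorins, Plxna2 was high in the double reporter cells. Plxna2, the plexin-A2 receptor (GRCm38 chromosome 1, 194618218 to 194816869, plus strand), was detected in 40 of 40 OligNBL cells, with a lowest value of 1.54, a median of 6.59 and a highest of 18.99 on the log2(value + 1) scale. In NBL cells the lowest, median and highest were 0, 0 and 7.73, in OL cells 0, 0 and 5.48, in O cells 0, 0.10 and 13.31, and in NB cells 0, 0 and 6.14. The OligNBL cells were thus high as a group, although single cells of the other populations reached into their range. The level was 7.90 ± 3.88 in OligNBL (SD, n = 40 cells), against 1.26 ± 2.04 in NBL (n = 27) and 0.66 ± 1.60 in OL (n = 22). Set means ran from 6.00 to 9.24 in OligNBL, against 0.78 to 1.82 in NBL and 0 to 1.82 in OL, and did not overlap. Plxna2 was present in 38 of 40 OligNBL cells, 5 of 27 NBL cells, 2 of 22 OL cells, 3 of 29 O cells and 4 of 35 NB cells. The difference was 6.64 against NBL and 7.24 against OL, and leaving out any set moved it no further than 6.47 to 6.83 and 6.87 to 7.90. The same cells had a median of 1397 genes detected. Among cells with at least 1000 genes detected, the differences were 6.57 and 6.77. This kept 38 OligNBL and 22 NBL cells but only 9 of 22 OL cells.

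The 250 bases before the RefSeq start of Plxna2 (GRCm38.p6, chr1:194619579-194619828, plus strand) are shown, since Plxna2 had the largest positive difference of the 35 genes in both OligNBL comparisons. This start lies 1611 bases inside the GENCODE span given above, so the window is within that span. The sequence is printed with CG dinucleotides in capitals:
Plxna2: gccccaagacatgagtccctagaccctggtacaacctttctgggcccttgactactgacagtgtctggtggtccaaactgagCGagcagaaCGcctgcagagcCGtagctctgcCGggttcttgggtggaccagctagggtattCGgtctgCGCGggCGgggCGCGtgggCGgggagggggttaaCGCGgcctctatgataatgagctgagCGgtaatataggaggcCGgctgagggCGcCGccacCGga
It held 18 CG dinucleotides, against a median of 6 (interquartile range 2 to 16) over 32851 promoter entries of the same length. Of 3 words searched on both strands, CAGCTG, the word TAATTA, and ACAAAG or its reverse complement, it held none; these occur in 13.001%, 4.84% and 16.5% of all entries.

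Plxna4, plexin-A4, was present broadly and separated no pair of populations. Its level was 4.63 ± 2.05 in OligNBL, 6.06 ± 2.01 in NBL, 5.65 ± 2.29 in OL, 6.12 ± 1.91 in O and 4.87 ± 3.33 in NB. The gene was present in 28 of 40 OligNBL, 26 of 27 NBL, 21 of 22 OL, 28 of 29 O and 28 of 35 NB cells. The lowest, median and highest values overlapped across all populations, from 0, 4.74 and 10.68 in OligNBL to 3.38, 5.85 and 12.82 in O. Paralogous receptors of the same subfamily thus differed in spread: Plxna2 ranged over 7.24 between the highest and lowest population level, Plxna4 over 1.49.

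Plxnb2, plexin-B2, was at 2.78 ± 3.13 in OligNBL, 1.45 ± 2.0 in NBL, 0.89 ± 1.38 in O and 0.49 ± 1.33 in NB, and was listed at 0 in all 22 OL cells. The transcript ranked in the top 500 of 16 of 40 OligNBL cells and 4 of 27 NBL cells, and its set means in OligNBL ran from 0.59 to 6.95. Plxnc1, plexin-C1, a receptor of Sema7a, was at 0.08 ± 0.44 in OligNBL against 3.60 ± 6.21 in NBL. The level was 0.14 ± 0.67 in OL, 0.33 ± 1.05 in O and 1.83 ± 2.49 in NB. Its NBL level came mostly from 5 cells of a pair of sets, named CRBT57 to CRBT61, whose means were 15.05 and 16.51, against 0 to 1.47 in the other NBL sets. Of the 8 NBL cells with Plxnc1 present, the other 3 were in the set named CRBT66 to CRBT77. Without the 3 NBL cells of the second of these sets the difference of OligNBL against NBL was -1.90.

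Nrp2, neuropilin-2, a co-receptor of secreted semaphorins, was highest in O. Its level was 0.44 ± 0.86 in OligNBL, 0.55 ± 1.43 in NBL, 0.27 ± 0.88 in OL, 2.38 ± 2.87 in O and 0.37 ± 1.24 in NB, with 0 of 22 OL cells and 10 of 29 O cells having it present. The difference of OL against O, -2.12, was -0.88 without the 10 O cells of a set named from CRBT203 to CRBT215, and that of O against NB, 2.01, was 0.77. Both lie close to the limit of 2: the first was -1.97 without the OL cells CRBT183 to CRBT190, and the second was between 1.85 and 1.95 without any of 4 other sets.

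**Figure D3:**
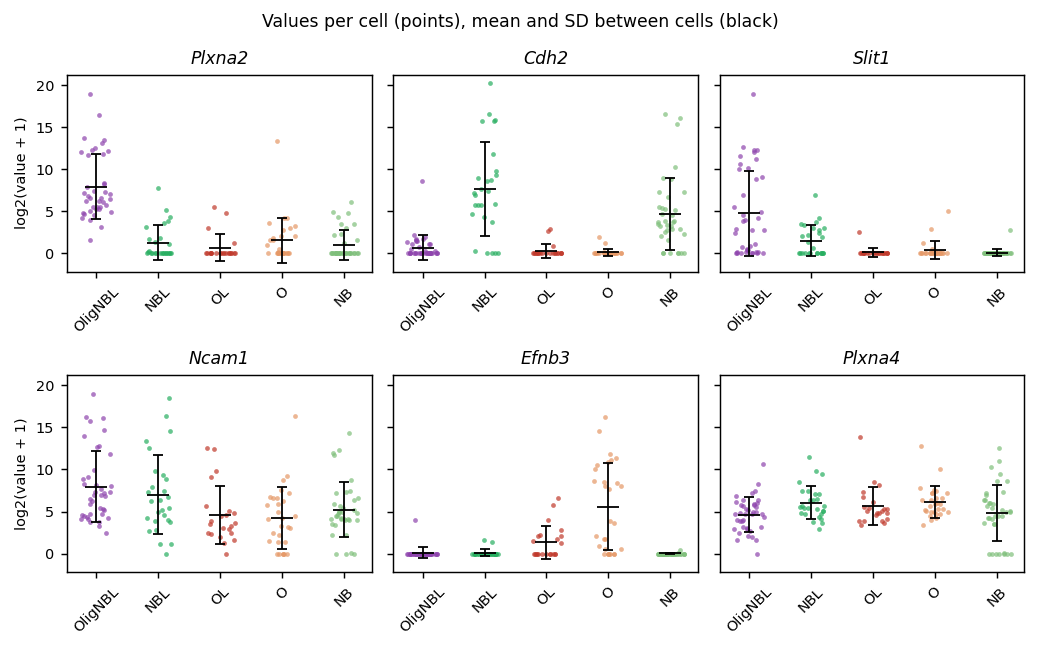
Values per cell (points, log2(value + 1)) with the mean and SD between cells (black) for 6 genes in the 5 populations. OligNBL cells are highest for Plxna2, at a level of 7.90 against 1.26 in NBL. For Cdh2 the NBL cells are highest, and Plxna4 overlaps throughout.

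Of the semaphorins, the ligands, Sema3c and Sema4b had their highest level in OligNBL, Sema4c in NBL and Sema4d in OL. Sema3c, a secreted semaphorin, was at 2.08 ± 3.58 in OligNBL, 0.37 ± 1.04 in NBL, 0.09 ± 0.28 in O and 0.08 ± 0.30 in NB, and was listed at 0 in all 22 OL cells. Of the 9 OligNBL cells with Sema3c present, 8 were a set named CRBT135 to CRBT142 with a mean of 7.61, and without that set the difference of OligNBL against OL was 0.70. Sema4b, a membrane semaphorin, was at 2.51 ± 3.81 in OligNBL and 0.16 ± 0.48 in NBL, with 1.10 ± 2.57 in OL, 0.22 ± 0.69 in O and 0.92 ± 2.01 in NB. Counted as present, it was found in 8 of 40 OligNBL and 0 of 27 NBL cells, and the difference of 2.35 was 1.58 without the same set of 8 cells and 1.96 without the 11 cells named CRBT123 to CRBT134.

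Sema4c, a membrane semaphorin that binds plexin-B2, was at 0.46 ± 0.90 in OligNBL, 2.67 ± 4.03 in NBL, 0.16 ± 0.85 in O and 0.26 ± 1.09 in NB, and was at 0 in all 22 OL cells. Of 8 NBL cells with the gene present, 7 formed a set named CRBT78 to CRBT84 with a mean of 8.66. Without that set the difference of OligNBL against NBL was -0.12 in place of -2.21 and that of NBL against NB 0.32 in place of 2.41. Without the 11 NBL cells named CRBT66 to CRBT77, the first was -3.33. Sema4d, a ligand of B plexins expressed by oligodendrocytes, was at 0.42 ± 2.18 in OligNBL, 0.03 ± 0.17 in NBL, 2.83 ± 3.67 in OL, 0.35 ± 1.04 in O and 0.50 ± 1.30 in NB. Cells with it present were 9 of 22 OL cells and 1 of 29 O cells. All 8 OL cells of a set named CRBT172 to CRBT179 had it there, with a mean of 6.47, and without them the difference of OL against O was 0.40 in place of 2.48 and that of OligNBL against OL -0.33 in place of -2.41. Without the 8 OL cells named CRBT183 to CRBT190 they were 3.99 and -3.92.

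Of the ephrin and Eph receptor members, Efnb3 and Epha5 had their highest level in O, Epha4 in OligNBL and Ephb6 in NBL. Efnb3, ephrin-B3, a membrane ligand that is also a myelin-associated inhibitor of axon growth (chromosome 11, 69554092 to 69560205, minus strand), had a lowest, median and highest value of 0, 0 and 6.62 in OL cells and 0, 3.87 and 16.20 in O cells. In OligNBL cells these were 0, 0 and 3.98, in NBL cells 0, 0 and 1.64, and in NB cells 0, 0 and 0.41. O cells were therefore the high group, with part of them at 0. Snap25, the mature neuron marker, also had its highest level in O, at 2.02 ± 3.26 in OL, 6.20 ± 5.22 in O and 0.23 ± 0.71 in NB. The level of Efnb3 was 1.37 ± 1.96 in OL (n = 22) and 5.55 ± 5.18 in O (n = 29), against 0.01 ± 0.07 in NB (n = 37), and 3 of 22 OL cells, 16 of 29 O cells and 0 of 35 NB cells had it present. The difference was -4.18 in OL against O and 5.54 in O against NB, where set means did not overlap. Without the 10 O cells of the set named from CRBT203 to CRBT215, whose mean was 10.77, these were -1.43 and 2.79. Snap25 averaged 1.92 in those 10 cells and 8.46 in the other O cells. The part of RNA from neurons in the Efnb3 level was not tested.

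Epha4, a receptor of ephrins of both classes, was at 2.03 ± 2.95 in OligNBL, 0.41 ± 1.09 in NBL, 0.42 ± 0.75 in O and 0.14 ± 0.44 in NB, and at 0 in all 22 OL cells. Presence was found in 11 of 40 OligNBL cells, of which 8 were the set named CRBT135 to CRBT142; without it the difference against OL was 1.09. Epha5 lay between 0.34 ± 0.92 in NBL and 1.53 ± 1.60 in O and passed no difference of 2. Ephb6, an Eph receptor without kinase activity, was at 0.08 ± 0.33 in OligNBL, 2.66 ± 3.92 in NBL, 0.34 ± 0.85 in O and 0.02 ± 0.12 in NB, and at 0 in all 22 OL cells. The gene was present in 0 of 40 OligNBL, 8 of 27 NBL and 0 of 35 NB cells. The 7 NBL cells named CRBT78 to CRBT84 averaged 8.56, and without them the difference of OligNBL against NBL was -0.51 in place of -2.58 and that of NBL against NB 0.57 in place of 2.64.

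Sema4c, Ephb6 and Lrrn1, a transmembrane leucine-rich repeat protein of neurons, were the 3 genes most alike over cells. Over all cells, Pearson's r was 0.91 for Sema4c and Ephb6, 0.69 for Sema4c and Lrrn1 and 0.68 for Ephb6 and Lrrn1, as a description of cells that share their population, depth and set structure. All 7 cells of the NBL set named CRBT78 to CRBT84 had each of the 3 present. Lrrn1 was at 0.21 ± 0.74 in OligNBL, 2.60 ± 3.24 in NBL and 0.27 ± 1.16 in NB, and was present in 1 of 40 OligNBL, 10 of 27 NBL and 1 of 35 NB cells. Without that set its difference of OligNBL against NBL was -0.99 in place of -2.39 and that of NBL against NB 0.93 in place of 2.33. The next pairs were Cdh2 with Plxnc1 (r = 0.62) and Efnb3 with Nrp2 (r = 0.60).

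The 250 bases before the RefSeq starts of these 3 genes (GRCm38.p6) are shown because the genes varied together in these cells. The Ephb6 start lies 29 bases inside its GENCODE span, so the end of that window overlaps the span. The windows lie at chr6:41605261-41605510 on the plus strand for Ephb6, chr6:107529476-107529725 on the plus strand for Lrrn1 and, for the first of 2 listed starts, chr1:36558382-36558631 on the minus strand for Sema4c. CG dinucleotides are in capitals:
Ephb6: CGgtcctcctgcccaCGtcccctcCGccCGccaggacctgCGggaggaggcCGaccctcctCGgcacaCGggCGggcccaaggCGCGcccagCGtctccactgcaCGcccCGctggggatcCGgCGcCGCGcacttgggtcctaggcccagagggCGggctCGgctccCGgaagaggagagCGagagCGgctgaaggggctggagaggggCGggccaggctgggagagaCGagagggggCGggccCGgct
Lrrn1: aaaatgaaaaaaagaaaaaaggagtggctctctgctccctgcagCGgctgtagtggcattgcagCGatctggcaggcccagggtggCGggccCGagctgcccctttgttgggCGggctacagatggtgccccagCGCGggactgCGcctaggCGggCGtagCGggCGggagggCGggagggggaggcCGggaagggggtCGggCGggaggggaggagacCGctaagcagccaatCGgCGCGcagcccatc
Sema4c: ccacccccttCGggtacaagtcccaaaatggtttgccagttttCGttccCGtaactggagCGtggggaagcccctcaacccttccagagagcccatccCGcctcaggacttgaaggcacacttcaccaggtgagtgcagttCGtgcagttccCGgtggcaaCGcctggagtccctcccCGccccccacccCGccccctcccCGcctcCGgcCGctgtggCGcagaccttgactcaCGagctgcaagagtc
They held 27, 20 and 15 CG dinucleotides, and of the 3 words above only ACAAAG occurred, 1 time, before Lrrn1. RefSeq promoter entries matched 28 of the 35 genes.

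**Figure D4:**
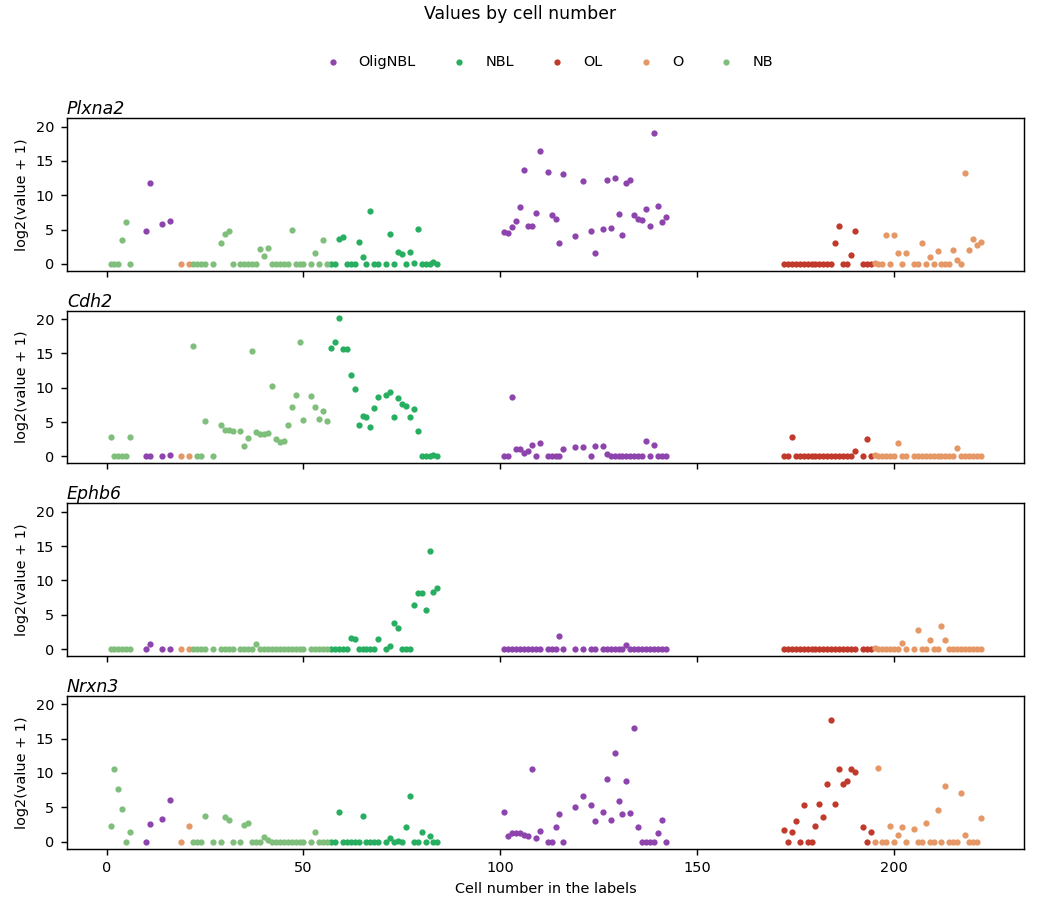
Values per cell (log2(value + 1)) against the cell number in the labels, colored by population, for 4 genes. Plxna2 is high along the whole run of OligNBL numbers, whereas Ephb6 is high in NBL cells CRBT78 to CRBT84 and Nrxn3 in OL cells CRBT183 to CRBT190.

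Slit1 and Robo1, a repellent cue and its receptor, had their highest levels in different populations, Slit1 in OligNBL and Robo1 in NB. Slit1 (chromosome 19, 41600257 to 41743665, minus strand) had a lowest, median and highest value of 0, 2.88 and 18.99 in OligNBL cells, against 0, 0.57 and 6.90 in NBL cells and 0, 0 and 2.51 in OL cells. It was detected in 33 of 40 OligNBL cells, but the ranges overlapped. The level was 4.73 ± 5.09 in OligNBL, 1.51 ± 1.82 in NBL, 0.11 ± 0.54 in OL, 0.33 ± 1.07 in O and 0.07 ± 0.45 in NB, and it was present in 19 of 40 OligNBL, 3 of 27 NBL, 0 of 22 OL, 1 of 29 O and 0 of 35 NB cells. The difference was 3.22 against NBL and 4.62 against OL; without the 8 OligNBL cells named CRBT135 to CRBT142, whose mean was 11.30, these were 1.58 and 2.98.

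Robo1 was at 1.10 ± 2.60 in OligNBL, 0.97 ± 1.45 in NBL, 0.13 ± 0.61 in OL, 0.63 ± 1.00 in O and 3.02 ± 3.61 in NB. The transcript ranked in the top 500 of 2 of 27 NBL cells, 0 of 29 O cells and 12 of 35 NB cells. The difference of NBL against NB was -2.05, close to the limit of 2, and was below 2 in size without any of 6 sets, the farthest being -1.47 without the 11 NB cells of a set named from CRBT22 to CRBT56. That of O against NB was -2.39, or -1.81 without them. Unc5c, a netrin receptor, lay between 0.33 ± 0.71 in NBL and 1.08 ± 2.46 in OligNBL and passed no difference of 2. Unc50 was at 0.13 ± 0.38 in NBL, 0.00 ± 0.00 in O and 2.52 ± 3.99 in NB. All 11 NB cells named CRBT35 to CRBT45 had it present, with a mean of 7.05, and without them the differences were -0.48 in NBL against NB and -0.60 in O against NB, in place of -2.39 and -2.52.

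Cdh2, which encodes N-cadherin (chromosome 18, 16588877 to 16809246, minus strand), was the member with the most negative difference in OligNBL against NBL. Its lowest, median and highest values were 0, 0 and 8.60 in OligNBL, against 0, 7.13 and 20.19 in NBL, and in NB they were 0, 3.75 and 16.62. OL cells reached 2.87 and O cells 1.97 at most. The NBL and NB cells were thus the high ones, with part of their cells at 0, whereas OligNBL cells, which also carry GFP, were low. The level was 0.68 ± 1.46 in OligNBL (n = 40), 7.64 ± 5.56 in NBL (n = 27), 0.29 ± 0.81 in OL, 0.12 ± 0.42 in O and 4.68 ± 4.32 in NB (n = 37). Counted as present, it was found in 1 of 40 OligNBL, 22 of 27 NBL, 0 of 22 OL, 0 of 29 O and 19 of 35 NB cells. The difference of OligNBL against NBL was -6.97, and stayed between -9.10 and -5.92 with any set left out. Set means overlapped, since the NBL set named CRBT78 to CRBT84 averaged 1.55. The difference of NBL against NB was 2.96, and it was 1.92 without the 3 NBL cells CRBT58, CRBT60 and CRBT61. It was 5.10 without the 7 named CRBT78 to CRBT84, and 4.53 without the 11 NB cells named from CRBT22 to CRBT56. That of O against NB was -4.56, with set means apart, and -2.99 without those 11 NB cells.

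Both protocadherins had levels below 1 in O and NB cells. Pcdhgc4, of the clustered gamma protocadherins, was at 3.35 ± 2.85 in OligNBL, 1.52 ± 1.75 in NBL, 0.15 ± 0.70 in OL, 0.33 ± 0.72 in O and 0.59 ± 1.45 in NB. Cells with it present were 13 of 40 OligNBL and 0 of 22 OL cells, and OligNBL and OL set means did not overlap. The gamma cluster shares its last exons between genes, so reads could have been divided among them and this value is uncertain. Pcdh9, a nonclustered protocadherin, was at 1.16 ± 1.30 in OligNBL, 1.09 ± 2.45 in NBL, 2.17 ± 4.04 in OL, 0.50 ± 1.32 in O and 0.25 ± 0.89 in NB, and 3 OL cells named CRBT180 to CRBT182 averaged 8.48.

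The integrin subunits were Itgb8 and Itgam. Itgb8, a beta subunit that pairs with alpha V, was at 0.23 ± 1.27 in OligNBL, 1.99 ± 4.01 in OL and 1.92 ± 3.25 in O, and was detected in 1 of 27 NBL and 0 of 37 NB cells. Presence was found in 5 of 22 OL and 9 of 29 O cells. Set means of Itgb8 ran from 0 to 11.09 in OL and from 0 to 5.25 in O. Its difference of OL against O, 0.07, ran from -1.37 to 1.57 with single sets left out. Itgam, the alpha M subunit known from microglia and other myeloid cells, was at 2.47 ± 4.00 in OligNBL, 1.96 ± 3.08 in NBL, 0.67 ± 2.22 in OL, 0.02 ± 0.11 in O and 1.37 ± 2.75 in NB. It was detected in 23 of 40 OligNBL, 17 of 27 NBL, 3 of 22 OL, 1 of 29 O and 16 of 37 NB cells. The gene was present in 10 of 40 OligNBL cells, of which 5 were a whole set of 5 cells named CRBT114 to CRBT121 with a mean of 10.00. No microglia marker of the list was among the genes measured, and the part of such RNA in this value was not tested. Itgb3bp, the centromere protein, was at 0.10 ± 0.45 in OligNBL, 3.01 ± 3.56 in OL and 0.84 ± 1.93 in O, and without the 8 OL cells named CRBT183 to CRBT190 the difference of OL against O was 0.04 in place of 2.18 and that of OligNBL against OL was -0.77 in place of -2.91. Without the 8 OL cells named CRBT172 to CRBT179 these were 3.65 and -4.39.

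Among adhesion molecules of the immunoglobulin and neurexin families, Ncam1 was present in most OligNBL, NBL and NB cells. This molecule carries polysialic acid on migrating neuroblasts. Its lowest, median and highest values were 2.50, 6.93 and 18.99 in OligNBL, 0, 6.23 and 18.54 in NBL, 0, 3.60 and 12.59 in OL, 0, 4.08 and 16.42 in O and 0, 4.74 and 14.35 in NB. All populations overlapped, and the OligNBL population was the one with no cell at 0. The level was 7.96 ± 4.20 in OligNBL, 7.02 ± 4.71 in NBL, 4.59 ± 3.43 in OL, 4.24 ± 3.70 in O and 5.23 ± 3.31 in NB. Presence was 38 of 40, 22 of 27, 11 of 22, 15 of 29 and 28 of 35 cells in the same order. The difference of OligNBL against OL was 3.37, or 2.19 without the 10 OligNBL cells named CRBT101 to CRBT110; with sets weighted equally it was 1.76.

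Nrxn3, a presynaptic neurexin, was at 3.43 ± 3.82 in OligNBL, 0.73 ± 1.63 in NBL, 4.84 ± 4.74 in OL, 1.62 ± 2.77 in O and 1.21 ± 2.36 in NB. The transcript ranked in the top 500 of 15 of 40 OligNBL and 3 of 27 NBL cells, and in 11 of 22 OL and 5 of 29 O cells. The difference of OligNBL against NBL was 2.70, or 1.33 without the 11 OligNBL cells named CRBT123 to CRBT134, and that of OL against O was 3.22, or 0.26 without the 8 OL cells named CRBT183 to CRBT190 and 5.17 without the 8 named CRBT172 to CRBT179. The neuroligins, its postsynaptic partners, passed no difference of 2: Nlgn1 lay between 2.11 ± 1.69 in OligNBL and 3.26 ± 1.48 in OL, and Nlgn3 between 0.51 ± 1.30 in NB and 1.07 ± 2.25 in OL. Cntn2, a contactin of axons and myelinated fibers, lay between 0.17 ± 0.60 in NBL and 1.01 ± 1.75 in O.

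The leucine-rich repeat members are mostly not known as guidance genes. Lrrc8a, the obligatory subunit of the volume-regulated anion channel, was at 3.31 ± 4.14 in OligNBL, 2.79 ± 2.31 in NBL, 4.15 ± 4.10 in OL, 3.35 ± 2.22 in O and 6.30 ± 4.48 in NB. Counted as present, it was found in 7 of 27 NBL, 8 of 29 O and 31 of 35 NB cells. The difference of NBL against NB was -3.51, between -4.04 and -2.90 with any set left out, and that of O against NB -2.95. Its partner subunit Lrrc8d lay between 0.07 ± 0.31 in OL and 1.53 ± 3.00 in OligNBL.

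Lrrc58 was at 6.81 ± 4.97 in O against 4.20 ± 3.82 in NB, a difference of 2.61 that was 0.30 without the 9 O cells of 1 set and 3.92 without the 9 O cells named from CRBT195 to CRBT208. Lrrc41, an adaptor of ubiquitin ligases, was at 0.87 ± 2.04 in OligNBL, 3.91 ± 4.79 in OL and 1.19 ± 3.22 in O, and without the 8 OL cells named CRBT183 to CRBT190 its difference of OL against O was -0.25 in place of 2.72 and that of OligNBL against OL -0.07 in place of -3.04. Lrrc7, a postsynaptic scaffold protein, was at 2.54 ± 2.71 in OligNBL and 0.12 ± 0.58 in OL, a difference of 2.42, or 1.64 without the 10 OligNBL cells named CRBT101 to CRBT110. Lrrc17 lay between 0.24 ± 0.84 in NBL and 2.60 ± 5.20 in OL, where 3 cells named CRBT180 to CRBT182 averaged 12.58.

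Counting members per cell gives a view that needs no level. Of the 35 genes, a median of 7 were present in an OligNBL cell (range 4 to 11), and a median of 6 in NBL (3 to 9), OL (3 to 10), O (2 to 10) and NB cells (3 to 9). Over all member and cell pairs this was 20.5% in OligNBL, 16.9% in NBL, 17.9% in OL, 15.96% in O and 16.1% in NB, against 14.7% to 15.02% over all genes. By highest level, 12 members (34.3%) were highest in OligNBL, 5 (14.3%) in NBL, 9 (25.7%) in OL, 6 (17.1%) in O and 3 (8.57%) in NB. Over all 3422 genes these shares were 26.8%, 17.3%, 16.7%, 19.7% and 19.5%.

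Ligands and receptors that are known to bind were looked for in the same cells. Sema3c and Plxna2 were both present in 9 of 40 OligNBL cells, where 9 had Sema3c and 38 had Plxna2. With Plxna2 in 38 of 40 cells, this overlap does not show that the genes go together. They coincided in 1 of 27 NBL cells and in 0 cells of OL, O and NB. Sema3c and Nrp2 coincided in 0 cells of any population, and 0 of 40 OligNBL cells had Nrp2 present. Sema3c and Plxna4 coincided in 8 of 40 OligNBL cells, where 28 had Plxna4, and in 1 of 27 NBL cells. Slit1 and Robo1 coincided in 2 of 40 OligNBL cells, where 19 had Slit1 and 4 had Robo1, and in 1 of 27 NBL cells, where 3 had Slit1 and 2 had Robo1. In NB, 12 of 35 cells had Robo1 and 0 had Slit1. Sema4d and Plxnb2 coincided in 0 cells of any population: 1 of 40 OligNBL cells had Sema4d and 16 had Plxnb2, and 9 of 22 OL cells had Sema4d and 0 had Plxnb2. Efnb3 and Epha4 also coincided in 0 cells, with Efnb3 in 1 and Epha4 in 11 of 40 OligNBL cells, and Efnb3 in 16 and Epha4 in 0 of 29 O cells. With so few cells holding one of the genes of a pair, these counts do not show that the genes avoid each other. Sema4c and Plxnb2 coincided in 1 of 40 OligNBL and 1 of 27 NBL cells, and Nrxn3 and Nlgn1 in 3 of 40 OligNBL, 3 of 22 OL, 1 of 29 O and 1 of 35 NB cells, and in 0 of 27 NBL cells.

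**Figure D5:**
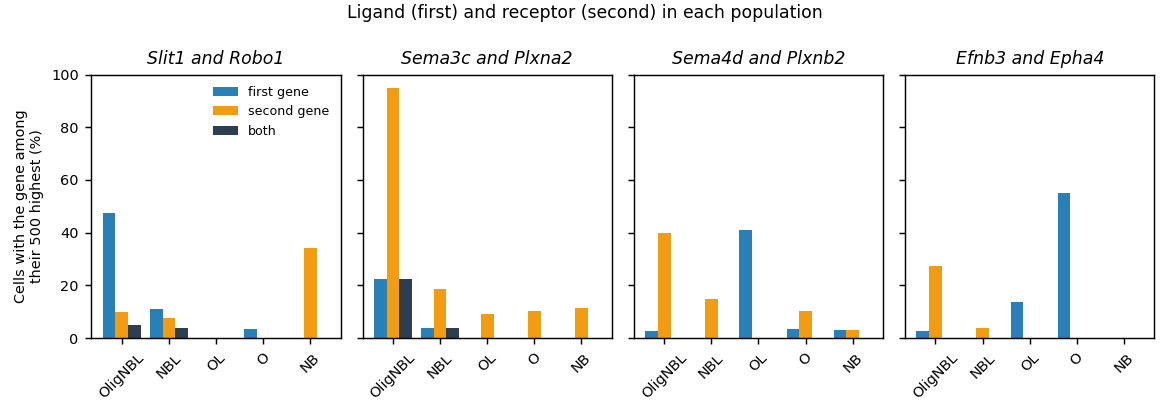
Percent of cells in each population with the ligand (first bar), the receptor (second bar) and both (last bar) in the top 500, for 4 pairs. For Sema4d and Plxnb2 and for Efnb3 and Epha4 no cell has both. For Sema3c and Plxna2 the 9 OligNBL cells with the ligand all have the receptor, which 38 of 40 OligNBL cells have.

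Of 158 other genes listed for guidance and adhesion, 43 were in the table. In OligNBL against NBL, 9 of the 43 (20.9%) were higher and 2 (4.65%) lower by at least 2, against 12.2% and 10.3% of all genes. In OligNBL against OL, 12 (27.9%) were higher and 4 (9.30%) lower, against 13.2% and 12.2% of all genes. In NBL against NB there were 3 each way (6.98%), against 9.76% and 8.39%, in OL against O 5 higher (11.6%) and 4 lower (9.30%), against 8.36% and 7.92%, and in O against NB 3 higher (6.98%) and 8 lower (18.6%), against 12.3% and 13.5%. No test stands behind these shares, and no difference without a set was computed for the 43 genes. Among 17 intracellular signalling genes, Dpysl5, a collapsin response mediator protein, was at 4.38 ± 4.23 in OligNBL, against 1.02 ± 1.19 in NBL, and 0.14 ± 0.47 in OL. Its relatives Crmp1 (2.78 ± 3.56 in OligNBL against 7.06 ± 6.59 in NBL) and Dpysl3 (4.32 ± 3.44 in OligNBL against 8.25 ± 4.48 in NBL) had the opposite order against NBL. Against OL they had the same order, with Crmp1 at 0.78 ± 1.85 and Dpysl3 at 1.29 ± 2.01 in OL. Dpysl2, a further relative, was at 6.12 ± 2.57 in OligNBL, 6.07 ± 3.10 in NBL and 9.87 ± 3.90 in OL.

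The catenins Ctnna1 (2.42 ± 3.48 in OligNBL) and Ctnnd1 (2.54 ± 3.39 in OligNBL), which link cadherins to the cell interior, were listed at 0 in all NBL cells, where Cdh2 itself was high. In NB they were at 0.03 ± 0.17 and 0.00023 ± 0.0014, in OL at 0.62 ± 2.90 and 0, and in O at 0.31 ± 0.80 and 0.27 ± 1.06. Ctnnd2 and Jup, of the same list, were at 1.34 ± 2.74 and 0.60 ± 1.35 in NBL, and at 3.06 ± 4.24 and 0.73 ± 1.57 in NB. Only 5 of the 26 catenins and integrin adaptors listed were in the table, so the others could not be looked for. Of 15 other adhesion genes, Ptprs, a receptor phosphatase, was at 5.08 ± 3.89 in OligNBL against 0.24 ± 1.14 in OL, Nrcam at 5.56 ± 5.01 in OligNBL against 0.07 ± 0.31 in OL, and the tetraspanin Cd9 at 0.43 ± 0.91 in OligNBL against 5.02 ± 3.12 in OL. Cd9 was at 5.02 ± 3.12 in OL against 1.09 ± 1.85 in O, and Alcam, an immunoglobulin superfamily adhesion gene, at 0.97 ± 2.22 in OL against 4.92 ± 4.90 in O. In NBL against NB, Dpysl3 was at 8.25 ± 4.48 in NBL against 4.23 ± 5.21 in NB and Lrp8, a reelin receptor, at 2.53 ± 3.27 in NBL against 6.34 ± 6.21 in NB.

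The annotated spans of the 35 genes had a median of 115.4 kb (range 6.11 to 1612 kb), against 23.3 kb over the 3308 genes of the table with a span in the annotation, and the longest was Nrxn3 on chromosome 12. Efnb3, the shortest, was the member with the largest difference in O against NB.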

How the data were processed

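SMART-Seq2 profiles of 155 sorted cells, 1 cell a sample, were analysed. The submitters' processing notes name kallisto, limma and build GRCm38, without versions. The authors deposited values for 3422 genes, called estimated counts; no source here says how these genes were picked. They form a normalized signal in the deposited file: of the 50 highest ranks, 25 held equal values across cells (relative tolerance 1e-06), and totals differed by 0.101%. Depth was therefore unknown, no count test was possible, and the planned level, log2(value + 1), was computed from the deposited signal.

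Populations follow the labels. The members and lists were chosen with earlier results of these data known, and 1 further gene that the rule matches is not reported here. Values are given for up to 6 members each way per comparison with a difference of at least 2 and the same sign in presence, and up to 3 per family by mean level. Other members, such as Sema3c, were named after their values were seen, to account for every member. For pathway genes the plan was up to 2 per list and direction in a comparison. Those named are only a part of what this allowed, and some, such as Ctnnd2 and Jup, lie outside it. None is named for O against NB, where Lrp8 differed by -5.20 and Alcam by 4.92. In 1 NB cell every gene had a value above 0, with 353 above its lowest value. Presence, and the cells in which a gene was detected, therefore used values above a cell's lowest. The number of genes detected per cell counted values above 0, so that NB cell stands at 3422. Gene spans came from GENCODE vM21 on GRCm38 and promoters from RefSeq, GRCm38.p6. Alternatives changed the pseudocount, the averaging, the cells, the weighting of sets, the members and the threshold; leaving out single sets or that NB cell was added after seeing the data. Doublets were not called. The difference of levels was run on values shuffled across cells, with a known shift added to some genes. This checks the arithmetic only. Software was Python 3.11.15 (numpy 2.4.6, pandas 2.3.3, scipy 1.17.1, matplotlib 3.10.9).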

Additional observations from a re-analysis of the deposited data

How the results depend on the processing

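The counts of members past the difference depended on the scale of the level, and the cause was not tested. For the alternatives in this section, shares over all genes were not computed. The counts and shares below therefore cannot be set against those of all genes and show nothing particular to the members. With 10 added in place of 1, members higher and lower numbered 2 and 2 in OligNBL against NBL, 3 and 0 in OligNBL against OL, and 1 and 1 in NBL against NB and in OL against O, with 1 and 2 in O against NB. With the log2 of the mean value they numbered 16 and 8, 15 and 9, 11 and 9, 10 and 6, and 8 and 7 in the same order, and the median differences of the first 3 comparisons were 0.95, 0.85 and 0.70. Without the highest 10% of cells, lower members numbered 1 in OligNBL against NBL, 1 in NBL against NB, 1 in OL against O and 2 in O against NB, and higher ones 5 in OligNBL against OL, 1 in NBL against NB and 2 in OL against O. With sets weighted equally there were 2 lower in OligNBL against NBL, 5 higher and 5 lower in OligNBL against OL, and 2 higher in OL against O. With a threshold of 1, higher members numbered 11 in OligNBL against NBL, 8 in NBL against NB and 6 in O against NB, and lower ones 10 in OligNBL against OL. With a threshold of 3, there were 2 higher and 2 lower in OligNBL against NBL, 4 and 1 in OligNBL against OL, 0 and 1 in NBL against NB, and 1 and 1 in OL against O and in O against NB. Limited to members whose scaled signal reached 5, the median was 0.69 in OligNBL against OL, 0.71 in NBL against NB and 0.50 in OL against O, the last of opposite sign to that of all 35. This limit keeps a member through the population where it is high, so the shift is built in and says nothing about the members.

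The share of member and cell pairs was 48.2% in OligNBL, 38.2% in NBL, 31.3% in OL, 36.7% in O and 32.3% in NB for any value above 0, and 12.9%, 11.2%, 10.6%, 8.57% and 8.73% for the 300 highest genes. Leaving out each set in turn gave 3 (without NBL cells CRBT78 to CRBT84) to 5 lower in OligNBL against NBL, 3 to 5 lower in OligNBL against OL (5 without either OL cells CRBT172 to CRBT179 or CRBT192 to CRBT194), and 2 to 5 higher and 1 to 3 lower in OL against O (2 and 1 without OL cells CRBT183 to CRBT190, 1 lower without the 10 O cells named from CRBT203 to CRBT215). Lrrc41 in OL against O ran from -0.25, without the OL cells CRBT183 to CRBT190, to 4.00. Of the 40 differences, 7 kept a size of at least 2 under every alternative run: Cdh2 in OligNBL against NBL and in O against NB, Plxna2 in both OligNBL comparisons, Slit1 in OligNBL against OL, Efnb3 in O against NB and Lrrc8a in NBL against NB. No paired analysis was possible because no mouse is named for any cell and the numbers in the titles only name cells.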
